A study of Sus scrofa with 12 samples.

Results

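The genes described here encode the proteins that join heart cells to each other: the connexins of gap junctions, the cadherins and catenins of adherens junctions, the desmosome proteins, and the claudins and their scaffold proteins of tight junctions. They were chosen by the letters of their symbols, with earlier results of these data known. Every probe set was taken whose only gene symbol in the array's annotation began with GJA, GJB, GJC, GJD, DSC, DSG, DSP, PKP, CTNNA, CTNNB, CTNND, TJP or CLDN, or with CDH and a number. This gave 57 probe sets for 53 genes, out of 27558 probe sets and 12362 named genes on the array. Each gene was read from the probe set with the highest mean over all arrays. By junction type these were 9 connexins, 12 cadherins, 7 catenins (with PKP4, a relative of p120-catenin found at adherens junctions), 4 desmosome genes, 13 tight junction genes and 8 further genes whose symbols begin with the same letters.

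The samples were left ventricular muscle of pigs aged 13 months. The study enrolled 12 animals, all female, 6 in each treatment. Paced pigs (labelled EXP) had complete atrioventricular block made with an ablation catheter and a pacemaker in VDD mode, in which each sensed atrial beat triggers a ventricular stimulus. Control pigs (labelled CTL, and Sham in the study design) were of the same age. The labels place the ventricular lead on the septum of the right ventricle and the atrial lead in the right atrial appendage, in their words for all pigs. Pigs were followed for 6 months, and the free wall of the left ventricle and the septum were then sampled at the level of the papillary muscles. The 12 arrays fall into 4 groups of 3, the free wall and the septum of control pigs and the same regions of paced pigs, and each array is named by its group and its number in the labels. No label ties an array to an animal, so the p-values speak only of array-to-array spread. The study asked how RNA levels differ between the free wall and the septum of paced and control hearts.

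Ventricular muscle cells meet end to end at intercalated discs. There connexin channels pass current from cell to cell, while cadherins, held to actin by catenins, and desmosomes, held to desmin filaments, carry the mechanical load. Claudins seal the gaps between endothelial or epithelial cells, and muscle cells have few of them. Loss of connexins from the disc slows conduction, and inherited defects of desmosome genes cause arrhythmogenic cardiomyopathy.

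No junction gene passed the test in any of 7 comparisons. The levels are RMA values on the log2 scale, in which a step of 1 is a doubling, and a difference was called at a limma Benjamini-Hochberg adjusted p under 0.05 over the 20668 probe sets tested. Of the 53 genes, 39 were tested, and 14 lay in the lowest 25% of probe sets by mean and were left out. For pacing in the free wall 0 of 39 junction genes were called, against 0.00484% of all probe sets tested, and 2 of 39 had an unadjusted p under 0.05, against 4.56%. For pacing in the septum the counts were 0 called against 0.00968% and 0 at an unadjusted p under 0.05 against 4.65%. For septum against free wall in control pigs 0 were called against 0% of all probe sets, and 3 had an unadjusted p under 0.05 against 3.67%. In paced pigs the same comparison gave 0 called against 0% and 3 at an unadjusted p under 0.05 against 6.73%. The difference between the pacing effects of the regions gave 0 called against 0% and 0 against 2.75%. With the regions averaged, pacing gave 0 called against 0.00484% and 3 against 5.55%. With the treatments averaged, the septum against the free wall gave 0 called against 0.00968% and 3 against 7.83%. A single gene makes up 2.56% of the 39, so each count lay within 2 genes of the share on the whole array. The genes at an unadjusted p under 0.05 were GJB5 and CDH24 for pacing in the free wall, GJB5, CLDN5 and CLDN23 for the regions in control pigs, and CTNNB1, CLDN8 and DSCR3 for the regions in paced pigs. With the regions averaged they were CDH11, CDH23 and CLDN20, and with the treatments averaged CTNNB1, CLDN5 and CLDN8. They did not pass and are given below as values, and CLDN8 entered the test only through its level in the free wall paced arrays. Groups without overlap are likewise given only as a description, since their share among all probe sets was not counted. All tests were two-sided, and a 95% interval that includes 0 does not show that levels were alike.

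The arrays had medians between 4.31 and 4.45 and 25th percentiles between 2.91 and 3.13. The labelled tissue carried its markers: the 7 cardiomyocyte markers on the array averaged 11.9 to 12.1 in every array, while 4 of 4 red blood cell markers were below the array median in every array. Free wall paced array 2 stood apart: its score on principal component 1 was 45.3, while the other arrays scored from -22.3 to 19.2. By limma's array weights it counted for 0.24 and the others for 0.63 to 1.68. On principal component 2 the free wall and septum control arrays numbered 1 scored 27.2 and 24.3, and all others from -16.3 to 7.8. Among the tested junction genes, 22 were not above the array median in all arrays. Free wall paced array 2 held the highest value for 8 of these, or 36.4%. It held the highest value for 0 of the 17 genes above the array median in all arrays. Its share of 18.2% over all probe sets tested covers every level and is no like measure for the 22. That array had the highest 25th percentile (3.13) and the lowest SD (2.01) of the arrays. Free wall paced array 3 held the lowest value for 8 of the 39 tested junction genes, 6 of them among the 22. Over all probe sets tested it held the lowest value for 9.04%. The part of these arrays in the results was not tested beyond the values given without them.

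GJA1 encodes Cx43, the main connexin of working ventricular muscle. Its probe set (15192811) read 10.81, 10.36 and 10.22 in the free wall control arrays and 10.29, 10.54 and 10.60 in the free wall paced arrays. In the septum it read 10.69, 10.36 and 10.46 in control pigs and 10.36, 10.23 and 10.34 in paced pigs. The highest values were both control arrays with the number 1, and the septum paced arrays were the most closely grouped. All 4 groups overlapped, those of the septum only by a tie at 10.36. In the free wall the paced mean of 10.48 ± 0.16 (SD, n = 3) stood against 10.46 ± 0.31 (SD, n = 3) in control pigs, a log2 difference of 0.01 (SE 0.16, 95% interval -0.33 to 0.36, adjusted p = 0.998). The interval spans ratios of paced to control from 0.793 to 1.28.

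In the septum GJA1 averaged 10.31 ± 0.07 in paced and 10.50 ± 0.17 in control pigs (SD, n = 3 each). The difference was -0.19 (SE 0.16, 95% interval -0.54 to 0.15, adjusted p = 0.992), or a ratio between 0.687 and 1.11. The pacing effects of the regions differed by -0.21 (SE 0.22, 95% interval -0.70 to 0.28, adjusted p = 0.999). The regions themselves differed by less than the SD pooled within all groups, 0.197: septum minus free wall was 0.04 in control pigs (95% interval -0.31 to 0.39, adjusted p = 0.997). In paced pigs it was -0.17 (95% interval -0.51 to 0.18, adjusted p = 0.913), beside SDs of 0.16 in the free wall and 0.07 in the septum of those pigs. With the regions averaged, pacing gave -0.09 (SE 0.13, 95% interval -0.38 to 0.20, adjusted p = 0.993), and with the treatments averaged the septum gave -0.06 (SE 0.11, adjusted p = 0.933). The sign of the free wall pacing difference of GJA1 depended on single arrays: leaving out control array 1 of that region gave 0.19, and leaving out control array 3 gave -0.11. The septum pacing difference kept its sign under the alternatives run, from -0.27 to -0.10, as did the region difference in paced pigs, from -0.26 to -0.11. In whole tissue a lower signal from fewer cells of a type and one from less RNA per cell cannot be told apart, here and for every gene below.

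**Figure D1:**
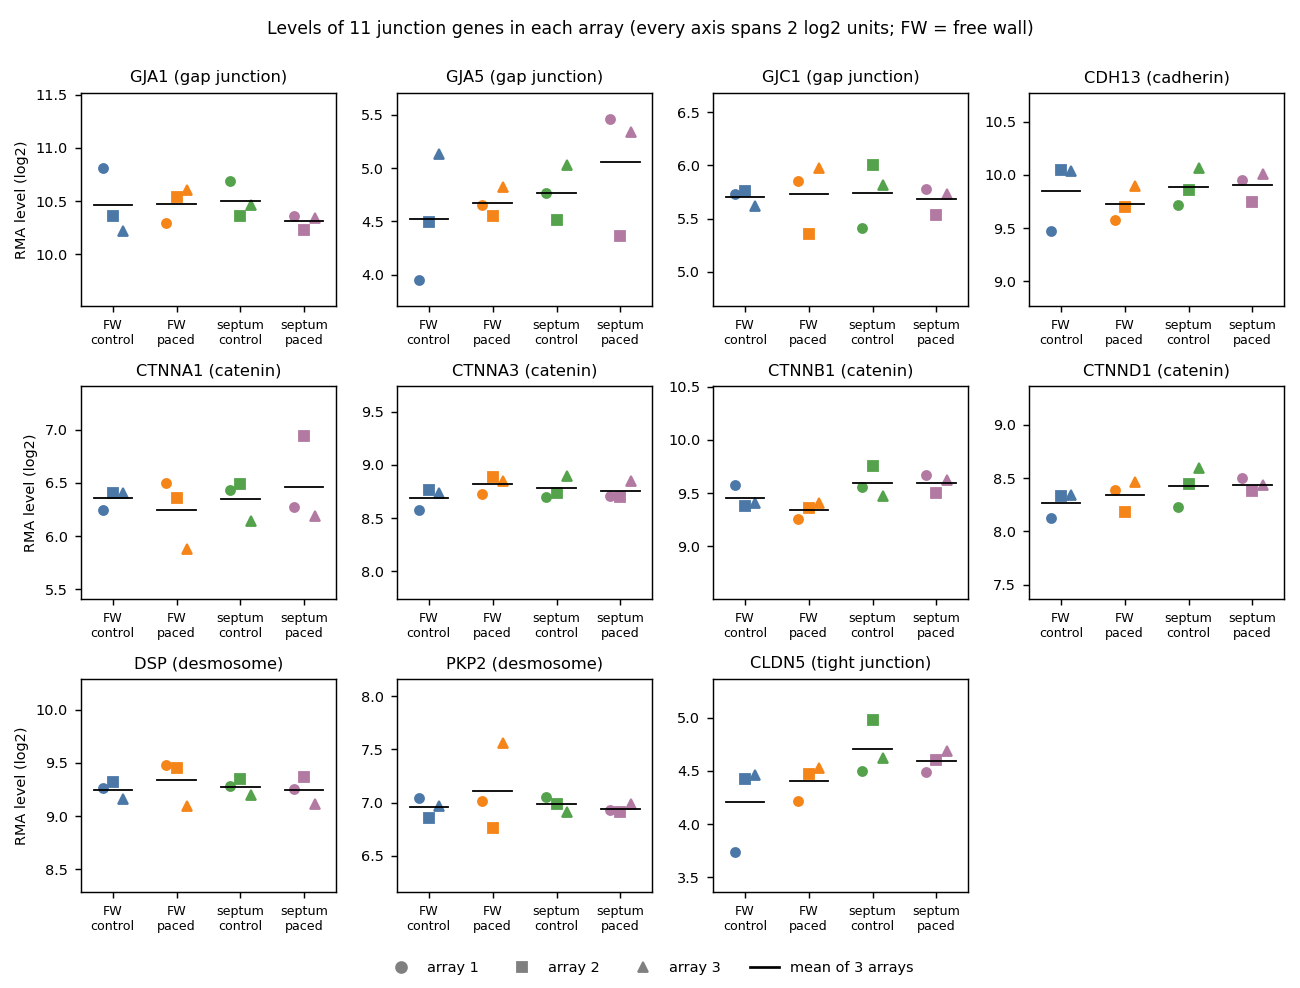
RMA level on the log2 scale (vertical axis, 2 units in every panel) of 11 junction genes in the 4 groups; each symbol is 1 array and each line the mean of 3 arrays. GJA1 lies between 10.22 and 10.81 in all 12 arrays with all groups overlapping, those of the septum only by a tie at 10.36. CTNNB1 of paced pigs lies from 9.26 to 9.41 in the free wall and from 9.50 to 9.67 in the septum, without overlap.

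GJA5 encodes Cx40, the connexin of atrial muscle, the His-Purkinje system and arterial endothelium. Probe set 15281145 read 3.95, 4.49 and 5.13 in the free wall control arrays and 4.65, 4.55 and 4.82 in the free wall paced arrays. In septal tissue it read 4.77, 4.51 and 5.03 in control pigs and 5.46, 4.36 and 5.34 in paced pigs. The values were scattered within groups, with the lowest in free wall control array 1, a pair of high septum paced arrays beside a low one, and overlap throughout. Its pooled SD within groups, 0.447, was the largest of the tested junction genes. The pacing difference was 0.15 (SE 0.31) in the free wall and 0.28 (SE 0.31) in the septum, with 95% intervals of -0.54 to 0.84 and -0.40 to 0.97. The septum minus free wall difference was 0.25 in control pigs and 0.38 in paced pigs, both with an SE of 0.31. With 1 array left out at a time, the GJA5 pacing difference ran from -0.14 to 0.45 in the free wall and from 0.08 to 0.63 in the septum, and the region difference in control pigs from -0.04 to 0.55.

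GJC1 encodes Cx45, found in the conduction system and, at low levels, in working muscle. Its probe set, 15207051, gave 5.73, 5.76 and 5.62 in free wall control, 5.85, 5.36 and 5.98 in free wall paced, 5.41, 6.00 and 5.82 in septum control and 5.78, 5.53 and 5.73 in septum paced arrays. All groups overlapped, and the differences were close to 0. Pacing gave 0.03 in the free wall (95% interval -0.37 to 0.42) and -0.06 in the septum (95% interval -0.46 to 0.33), each with an SE of 0.18. The annotation lists GJC1 under 2 probe sets with identical values, used once.

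GJB5 encodes Cx31.1, a connexin known from skin. It was below the array median in all 12 arrays, with 3.32, 3.26 and 2.64 in free wall control, 3.30, 3.92 and 3.54 in free wall paced, 3.63, 3.57 and 3.66 in septum control and 3.02, 3.46 and 3.82 in septum paced arrays. The free wall control group was lowest, and the septum control arrays lay above it without overlap. The log2 difference was 0.55 for septum minus free wall in control pigs (SE 0.23, adjusted p = 0.997) and 0.51 for pacing in the free wall (SE 0.23, adjusted p = 0.998). Both comparisons share the free wall control arrays. Without free wall control array 3, the lowest, the differences were 0.33 and 0.30. In the septum the pacing difference was -0.19 (SE 0.23), and the difference of pacing effects was -0.70 (SE 0.33, adjusted p = 0.999).

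The remaining tested connexins were GJD2, the neuronal Cx36, at 2.95 to 3.53, and GJD4, a connexin of muscle, at 3.75 to 4.34. GJA10, GJB1 and GJB7 were left out as dim, with means from 1.99 to 2.91. GJA4, a connexin of arterial endothelium, was not analysed here. Over the 6 tested connexins the median pacing difference was 0.02 in the free wall, with 5 above 0, and 0.01 in the septum, with 3 above 0. The median over all probe sets was 0.00 in both. For septum minus free wall the median was 0.09 in control pigs, with 5 of 6 above 0, and 0.02 in paced pigs, with 3 of 6 above 0.

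Among the cadherins, CDH13 encodes T-cadherin, the adiponectin receptor anchored in the membrane of muscle and endothelial cells. Probe set 15301488 gave 9.47, 10.05 and 10.04 in free wall control, 9.58, 9.70 and 9.90 in free wall paced, 9.72, 9.86 and 10.07 in septum control and 9.95, 9.75 and 10.01 in septum paced arrays. The lowest value was free wall control array 1, and the groups overlapped in each comparison. Pacing gave -0.13 in the free wall (SE 0.17, 95% interval -0.50 to 0.24) and 0.02 in the septum (SE 0.17, 95% interval -0.35 to 0.39). Without free wall control array 1 the free wall difference was -0.32. In paced pigs the septum minus free wall difference was 0.18 (SE 0.17, adjusted p = 0.915).

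CDH11 encodes OB-cadherin, the cadherin of fibroblasts and other mesenchymal cells. The levels of probe set 15296117 were 5.14, 5.71 and 5.75 in free wall control against 6.02, 5.58 and 6.31 in free wall paced arrays. In the septum control pigs had 4.80, 5.81 and 5.53, and paced pigs had 6.04, 5.91 and 5.80. Both control arrays with the number 1 were the lowest, and the groups overlapped, in the septum by 0.01. The paced mean was 5.97 ± 0.37 against 5.53 ± 0.34 in the free wall and 5.92 ± 0.12 against 5.38 ± 0.52 in the septum (SD, n = 3 each). Pacing with the regions averaged gave 0.49 (SE 0.21, adjusted p = 0.891). The same 2 low arrays were low in fibroblast RNA: 7 fibroblast markers averaged 6.94 and 7.01 in the control arrays with the number 1 and 7.49 to 8.12 in the other 10. None of the 7 was below the array median in every array. The low level was not particular to fibroblast markers. The 6 smooth muscle and pericyte markers on the array averaged 6.58 and 6.51 in the same 2 arrays and 6.85 to 7.24 in the other 10. With the regions averaged, 7 of 7 fibroblast markers lay above 0 for pacing, against 48.9% of all probe sets. Their median was 0.30, and 0 passed. The fibroblast marker mean was 7.76 to 8.02 in the paced arrays, inside the 7.49 to 8.12 of the control arrays not numbered 1. Without the number 1 control arrays the CDH11 difference was 0.24. The part of either marker list in the CDH11 difference was not tested.

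CDH23, a cadherin of the hair cells of the inner ear, was below the array median in all 12 arrays. It read 3.86, 3.83 and 3.94 in free wall control, 3.82, 3.82 and 3.24 in free wall paced, 3.78, 3.94 and 4.15 in septum control and 3.55, 3.65 and 3.70 in septum paced arrays. The paced arrays lay below the control arrays in both regions without overlap, in the free wall by a gap of 0.01 between the nearest arrays. Free wall paced array 3, at 3.24, was the lowest by far, while the rest of that group read 3.82 beside a lowest control value of 3.83. The difference was -0.25 (SE 0.16) in the free wall and -0.32 (SE 0.16) in the septum. With the regions averaged it was -0.29 (SE 0.11, adjusted p = 0.879), or -0.21 without the paced arrays numbered 3.

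CDH24, a cadherin that binds several catenins, read 3.80, 4.05 and 4.39 in free wall control and 4.35, 4.65 and 4.65 in free wall paced arrays, with overlap between the groups. The difference was 0.47 (SE 0.21, adjusted p = 0.998). In the septum it was 0.10 (SE 0.21), where control pigs gave 4.50, 4.19 and 4.15 and paced pigs 4.40, 3.96 and 4.79. CDH19, the cadherin of Schwann cells, was tested at 3.30 to 4.39 and CDH22 at 4.84 to 5.59. CDH6, CDH7, CDH10, CDH12, CDH17 and CDH20 were left out as dim. Over the 6 tested cadherins the median pacing difference was 0.05 in the free wall and 0.06 in the septum, with 3 and 4 above 0. The median for septum minus free wall was 0.05 in control pigs and -0.02 in paced pigs. CDH2 and CDH5, the cadherins of muscle and endothelium, were not analysed here.

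Catenins link cadherins to actin. CTNNB1 encodes beta-catenin, which binds the cadherin tail and also carries Wnt signals. Probe set 15214971 showed levels of 9.58, 9.38 and 9.41 in free wall control, 9.26, 9.36 and 9.41 in free wall paced, 9.56, 9.75 and 9.47 in septum control and 9.67, 9.50 and 9.62 in septum paced arrays. In paced pigs every septum array was above every free wall array, with means of 9.60 ± 0.09 and 9.34 ± 0.08 (SD, n = 3 each). The difference was 0.25 (SE 0.11, adjusted p = 0.736), and in control pigs, with overlap, it was 0.14 (SE 0.11, adjusted p = 0.997). With the treatments averaged it was 0.20 (SE 0.08, adjusted p = 0.600) and stayed between 0.16 and 0.23 when single arrays were left out. Pacing gave -0.11 (SE 0.11, 95% interval -0.36 to 0.13) in the free wall and 0.00 (SE 0.11, 95% interval -0.24 to 0.25) in the septum.

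CTNNA1 and CTNNA3 encode the alpha-catenins that hold the complex to actin, of which CTNNA3 is the heart and testis form. CTNNA1 (probe set 15266946) read 6.25, 6.41 and 6.41 in free wall control, 6.50, 6.36 and 5.88 in free wall paced, 6.43, 6.49 and 6.14 in septum control and 6.27, 6.94 and 6.19 in septum paced arrays. CTNNA3 (probe set 15232438) read 8.58, 8.76 and 8.74 in free wall control, 8.73, 8.89 and 8.85 in free wall paced, 8.70, 8.74 and 8.90 in septum control and 8.71, 8.70 and 8.85 in septum paced arrays. Groups of both genes overlapped, but the spread differed: the pooled SD within groups was 0.282 for CTNNA1 and 0.0934 for CTNNA3, the smallest of the tested junction genes. Pacing gave -0.11 for CTNNA1 in the free wall (95% interval -0.57 to 0.35) and 0.11 in the septum (95% interval -0.34 to 0.57). Without free wall paced array 3 the first was 0.073, and without septum paced array 2 the second was -0.12. For CTNNA3 it gave 0.13 (95% interval -0.10 to 0.36) and -0.03 (95% interval -0.26 to 0.21), so that a change past 1.29-fold in either region lies outside its intervals. CTNNA3 was also the only member whose annotation had no entry in RefSeq's pig gene table.

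CTNND1 encodes p120-catenin, which keeps cadherins at the membrane. The probe set of CTNND1, 15261879, read 8.13, 8.33 and 8.34 in free wall control, 8.39, 8.18 and 8.46 in free wall paced, 8.23, 8.45 and 8.60 in septum control and 8.50, 8.38 and 8.44 in septum paced arrays. All groups overlapped. Pacing gave 0.08 in the free wall and 0.01 in the septum, and septum minus free wall gave 0.16 in control and 0.10 in paced pigs, each with an SE of 0.13. PKP4 lay between 6.85 and 7.45, with pacing differences of 0.08 and 0.23 (SE 0.17 each), and CTNND2, a neuronal relative, between 2.96 and 3.66. CTNNA2, the neuronal alpha-catenin, was left out as dim. Over the 6 tested catenins the septum minus free wall median was 0.04 in control pigs, with 3 above 0, and 0.09 in paced pigs, with 4 above 0.

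Of the desmosome genes, DSP encodes desmoplakin, which ties the desmosome to desmin filaments. Its levels (probe set 15307564) were 9.26, 9.32 and 9.16 in free wall control, 9.48, 9.45 and 9.09 in free wall paced, 9.28, 9.35 and 9.20 in septum control and 9.25, 9.37 and 9.11 in septum paced arrays. Free wall paced arrays held both the highest values and the lowest one. Pacing gave 0.09 in the free wall (SE 0.13, 95% interval -0.19 to 0.37) and -0.03 in the septum (SE 0.13, 95% interval -0.31 to 0.24). Septum minus free wall gave 0.03 in control pigs and -0.10 in paced pigs, each with an SE of 0.13.

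PKP2 encodes plakophilin-2, an armadillo protein of the desmosome plaque. Its levels (probe set 15288951) were 7.04, 6.86 and 6.97 in free wall control, 7.02, 6.76 and 7.56 in free wall paced, 7.05, 6.99 and 6.91 in septum control and 6.93, 6.91 and 6.99 in septum paced arrays. Free wall paced array 3 was the highest, and the free wall paced SD of 0.41 stood against 0.04 to 0.09 in the other groups. Pacing in the free wall gave 0.16 (SE 0.17, adjusted p = 0.998), or -0.07 without free wall paced array 3. In paced pigs septum minus free wall gave -0.17 (SE 0.17), or 0.05 without that array. DSC2, the desmocollin of heart muscle, read 1.23 to 1.69 and was below the 25th percentile of all 12 arrays, so it and DSC1 were left out. No DSG gene was among the 53, and DSG2, the desmoglein of heart muscle, was not analysed here.

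**Figure D2:**
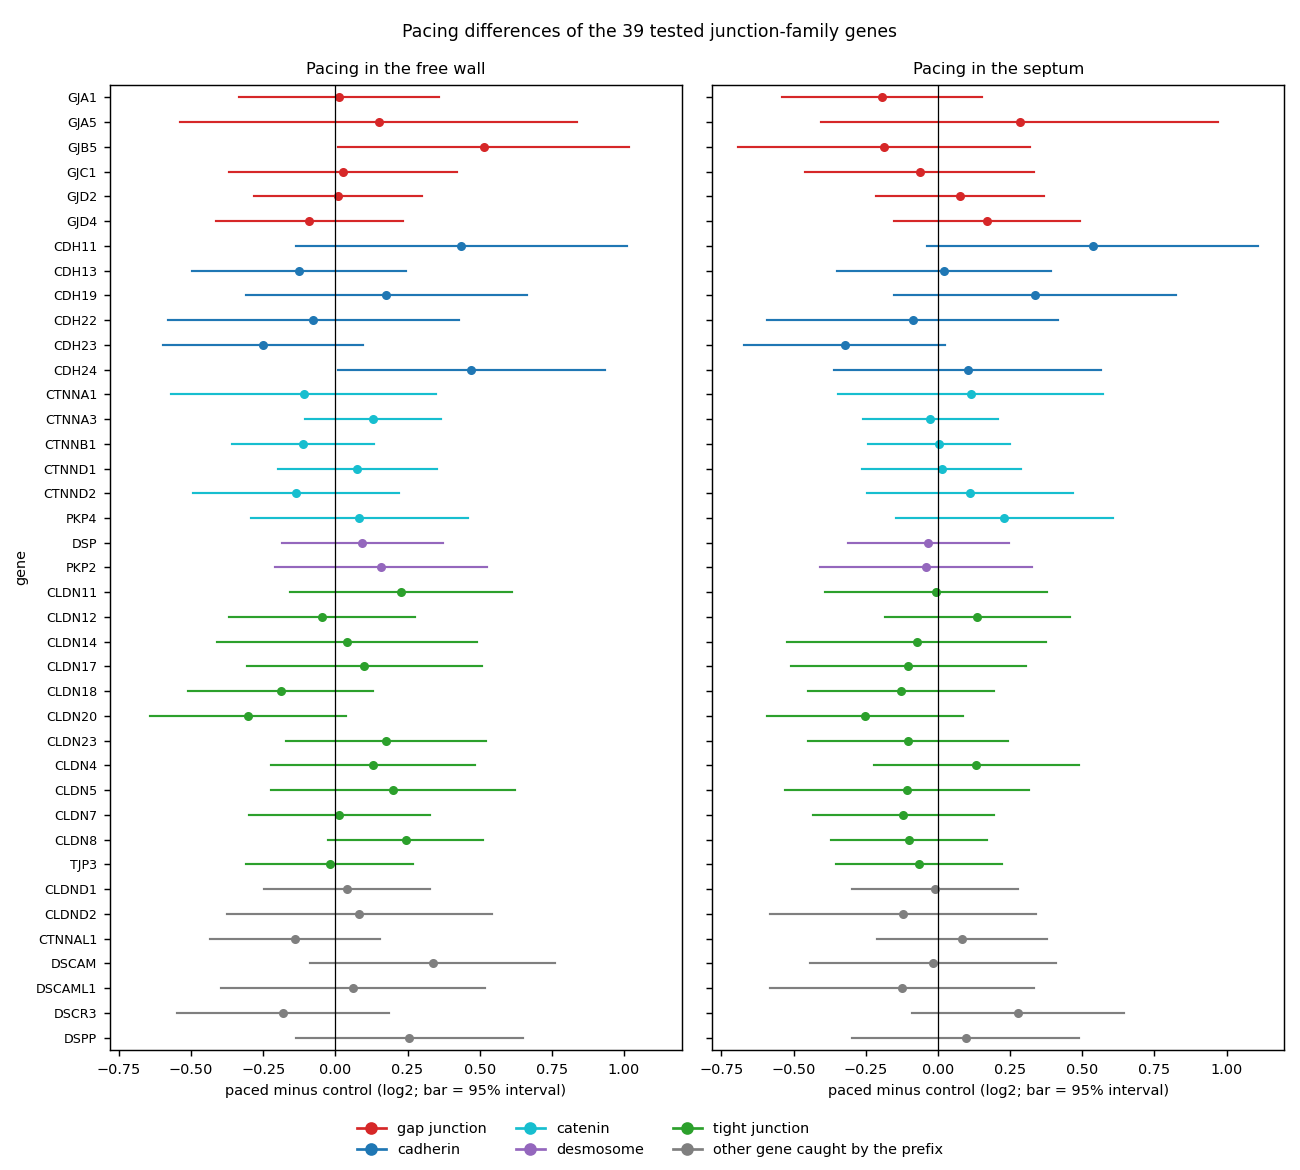
Pacing differences (paced minus control, log2, horizontal axis) of the 39 tested junction genes in the free wall and the septum; points are limma estimates, bars their 95% intervals, and colours the junction type. Most bars cross 0, GJB5 and CDH24 in the free wall lie just above it (0.51 and 0.47), and no gene passed at an adjusted p under 0.05.

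Of the 13 tight junction genes, 2 were above the array median in all 12 arrays. CLDN5, the claudin of endothelial cells, is known from heart muscle as well. Its levels (probe set 15231878) were 3.74, 4.42 and 4.46 in free wall control, 4.22, 4.47 and 4.53 in free wall paced, 4.50, 4.98 and 4.62 in septum control and 4.49, 4.60 and 4.69 in septum paced arrays. In control pigs the septum arrays lay above the free wall arrays without overlap, by 0.04 between the nearest arrays. The difference was 0.49 (SE 0.19, adjusted p = 0.997). In paced pigs it was 0.19 (SE 0.19, adjusted p = 0.918), and with the treatments averaged it was 0.34 (SE 0.14, adjusted p = 0.587). Free wall control array 1 was the lowest by far, and without it the control difference was 0.26. The 6 endothelial markers on the array averaged 6.19 to 6.70, and none of them was below the array median in every array. They averaged 6.20 in free wall control array 1 and 6.19 in septum control array 1, where CLDN5 read 4.50. Their part in the CLDN5 difference was not tested. Pacing gave 0.20 for CLDN5 in the free wall and -0.11 in the septum (SE 0.19 each). Both signs rested on 1 array: the first was -0.033 without free wall control array 1 and the second 0.033 without septum control array 2.

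**Figure D3:**
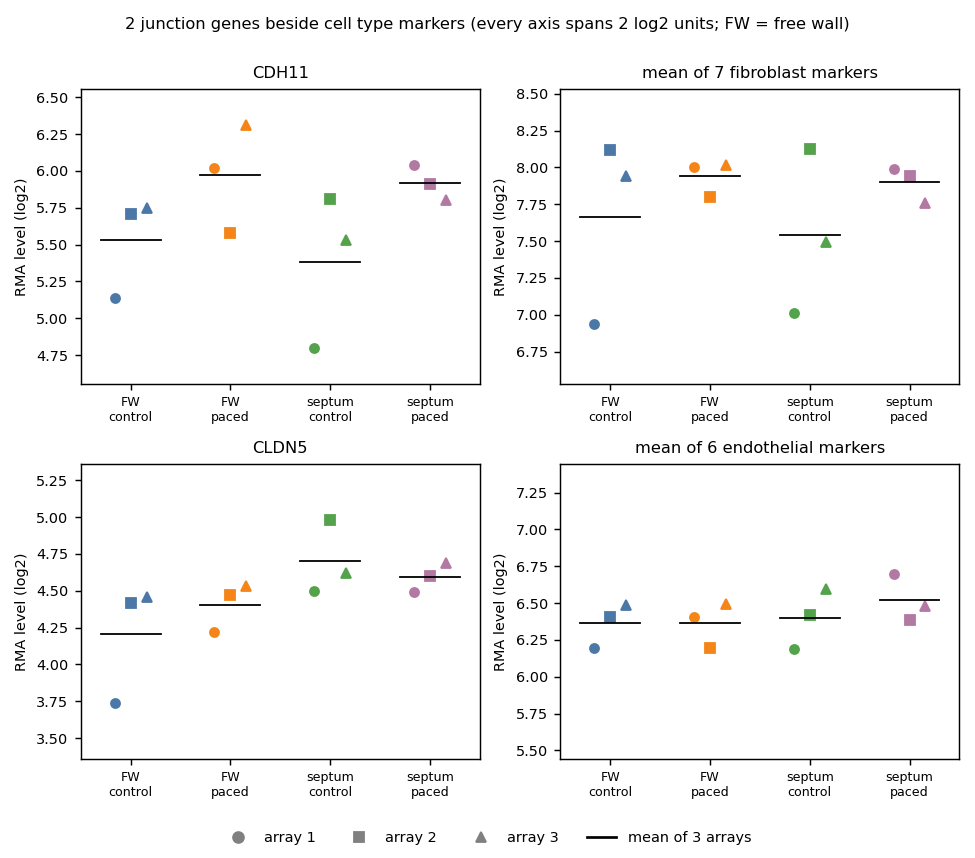
RMA level on the log2 scale (vertical axes, 2 units each) of CDH11 beside the mean of 7 fibroblast markers and of CLDN5 beside the mean of 6 endothelial markers; each symbol is 1 array and each line the mean of 3 arrays. CDH11 and the fibroblast mean are both lowest in the control arrays with the number 1 (5.14 and 4.80, 6.94 and 7.01).

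CLDN23 read 4.33, 4.52 and 4.59 in free wall control and 4.77, 4.81 and 5.01 in septum control arrays, which did not overlap, and 4.32 to 4.96 in paced arrays. The control difference was 0.38 (SE 0.16, adjusted p = 0.997), against 0.10 (SE 0.16) in paced pigs. CLDN8, a claudin of the kidney tubule, was near the filter, at 3.14, 3.33 and 3.22 in free wall paced and 2.93, 2.81 and 2.82 in septum paced arrays. Its mean over all arrays was 3.006, against a filter at 2.998. Only the free wall paced group, with a mean of 3.23, lay above the filter. The means were 2.99 in free wall control, 2.95 in septum control and 2.85 in septum paced arrays. CLDN8 was thus tested only through the group that is high in this comparison, and its difference is a description only. The septum paced arrays lay lower without overlap, and the difference was -0.38 (SE 0.12, adjusted p = 0.590). In control pigs, with 3.17, 2.98 and 2.81 in the free wall and 3.12, 2.86 and 2.88 in the septum, the difference was -0.03 (SE 0.12). With the treatments averaged it was -0.21 (SE 0.09, adjusted p = 0.613).

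CLDN20 averaged -0.28 in paced minus control pigs with the regions averaged (SE 0.10, adjusted p = 0.868). It read 3.96, 3.82 and 3.95 in free wall control, 3.71, 3.80 and 3.31 in free wall paced, 3.99, 3.81 and 4.22 in septum control and 3.76, 3.58 and 3.92 in septum paced arrays. The paced arrays were lower without overlap in the free wall and with overlap in the septum. The lowest value, 3.31, was free wall paced array 3. With 1 number left out at a time, the CLDN20 difference with the regions averaged ran from -0.35 to -0.215. CLDN7 and CLDN12 were above the array median in all 12 arrays. CLDN12 lay at 6.19 to 6.72 and CLDN7 at 4.68 to 5.23, and their pacing differences were between -0.12 and 0.14 in both regions. The other tested tight junction genes were CLDN4, CLDN11, CLDN14, CLDN17, CLDN18 and the scaffold gene TJP3, while CLDN2 was left out as dim.

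Over the 12 tested tight junction genes the median pacing difference was 0.07 in the free wall, with 8 above 0, and -0.10 in the septum, with 2 above 0. The difference of the pacing effects had a median of -0.12 with 4 of 12 above 0, beside 0.01 over all probe sets, and 0 of 12 passed. TJP1, which encodes a scaffold protein of the family, was not analysed here. Of the 5 epithelial and mesothelial markers on the array, EPCAM, a defining one, had a mean of 1.91, while the keratins KRT8, KRT18 and KRT19 had means of 4.62, 4.39 and 4.59. The 5 together averaged 3.68 to 4.06.

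The other 8 genes were taken in by the letters of their symbols. DSPP, a tooth matrix gene, and CTNNAL1, a relative of alpha-catenin, were above the array median in all arrays, as was CLDND1, which encodes a claudin-like membrane protein. DSCR3, a subunit of an endosomal sorting complex, read 4.57, 5.06 and 4.33 in free wall paced and 5.14, 4.91 and 5.15 in septum paced arrays, with overlap. The difference was 0.41 (SE 0.17, adjusted p = 0.704), and leaving out free wall paced array 2 gave 0.62, while leaving out array 3 of that group gave 0.25. In control pigs it was -0.04 (SE 0.17). DSCAM, DSCAML1 and CLDND2 were tested at lower levels, and DSCC1 was left out as dim. For pacing, the groups did not overlap for DSCAM in the free wall (0.34) and for DSCR3 (0.28) and CLDND2 (-0.12) in the septum. For the regions of control pigs they did not overlap for DSCAML1 (0.28), and none of these passed.

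**Figure D4:**
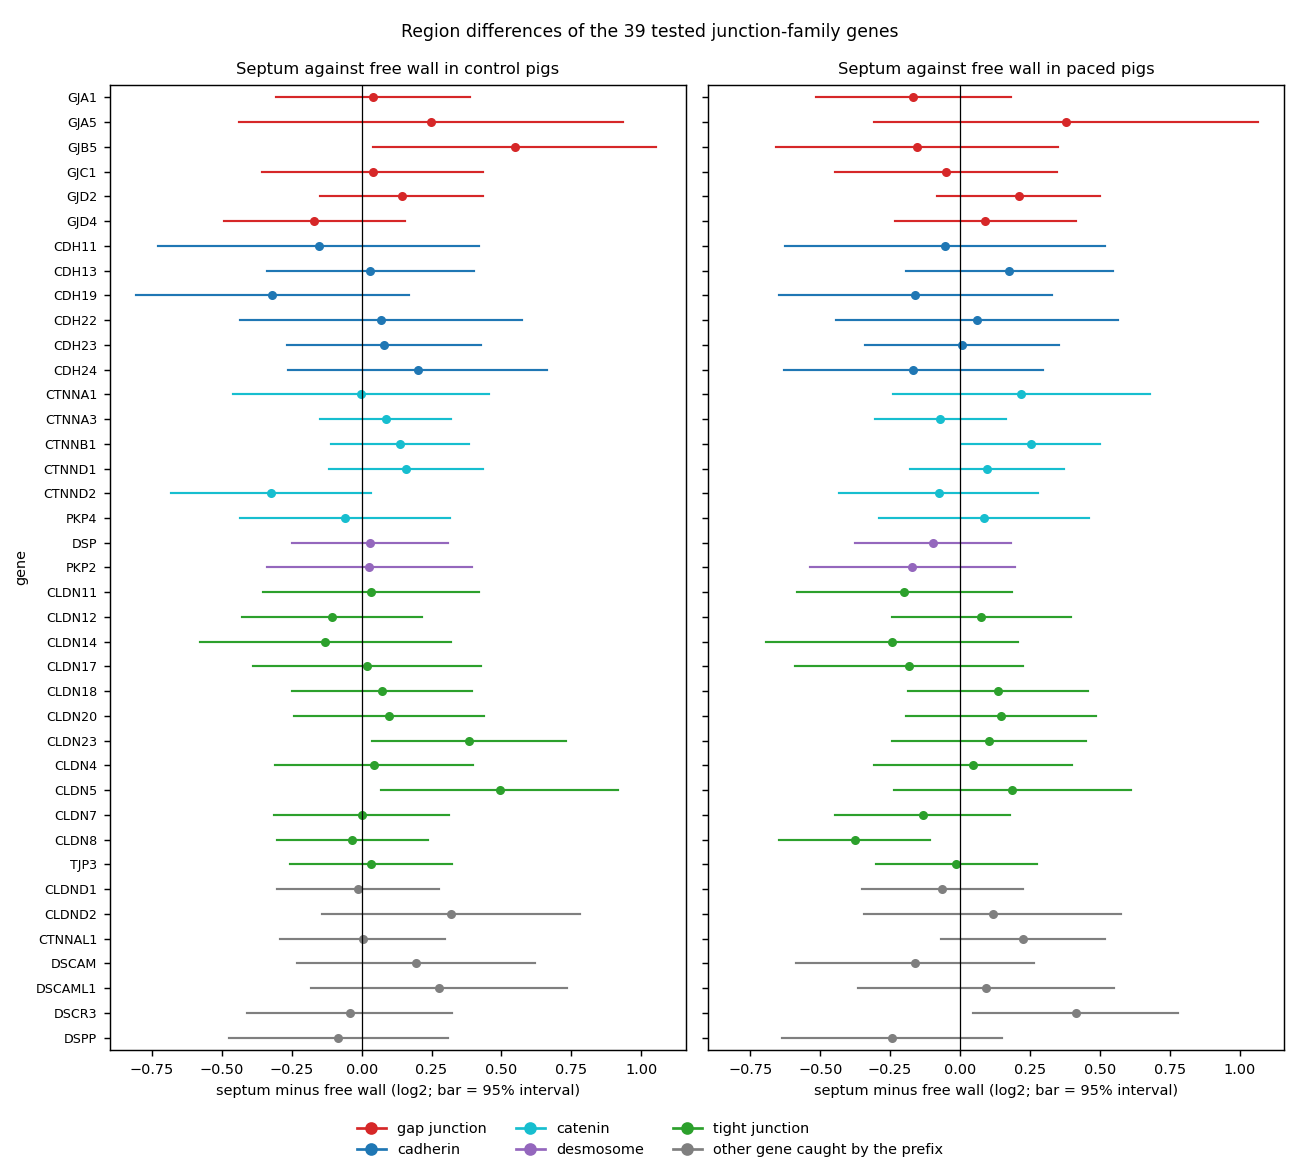
Region differences (septum minus free wall, log2, horizontal axis) of the 39 tested junction genes in control and in paced pigs; points are limma estimates, bars their 95% intervals, and colours the junction type. GJB5, CLDN5 and CLDN23 lie above 0 in control pigs (0.55, 0.49 and 0.38), CTNNB1 and DSCR3 above and CLDN8 below 0 in paced pigs (0.25, 0.41 and -0.38), and no gene passed at an adjusted p under 0.05.

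Across the 39 tested genes the median pacing difference was 0.06 in the free wall, with 26 above 0, and -0.02 in the septum, with 17 above 0. Beside it, all probe sets had medians of 0.00, with 49.9% and 49.1% above 0. A difference of at least 0.5 in size was seen for GJB5 in the free wall, CDH11 in the septum (0.54, SE 0.26) and GJB5 between regions of control pigs. In the comparison of the pacing effects GJB5 alone was past that size, and in the other comparisons no junction gene was. For the 17 genes above the array median in all arrays, the 95% interval of a pacing difference in the free wall reached 0.234 to 0.574 to either side, with a median of 0.347. For the other 22 tested genes it reached 0.269 to 0.687, with a median of 0.376.

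The partners of these proteins were read from 3 lists of 49 genes, of which 32 were on the array and 30 were tested, and 0 were called in any of the 7 comparisons. JUP encodes plakoglobin, which serves both adherens junctions and desmosomes. Its septum minus free wall difference on the log2 scale was 0.44 in paced pigs (SE 0.13, adjusted p = 0.551) and 0.26 in control pigs (SE 0.13, adjusted p = 0.997). With the treatments averaged the JUP difference was 0.35 (SE 0.09, adjusted p = 0.363). ARVCF, a relative of p120-catenin, differed by 0.24 in the same direction (SE 0.08, adjusted p = 0.462). Of the 10 tested partners of cadherins and catenins, 8 lay above 0 for septum minus free wall in control pigs and 9 in paced pigs. Of all probe sets, 52.3% and 51.4% did. The partners had medians of 0.14 and 0.16, beside 0.01 over all probe sets in both.

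The mixed list of intercalated disc and gap junction partners had 12 tested genes, among them LMNA, TMEM43, PANX2 and LDB3. For septum minus free wall, 12 of the 12 lay above 0 in control pigs and 10 in paced pigs. Of all probe sets, 52.3% and 51.4% did. The medians were 0.13 and 0.15, beside 0.01 over all probe sets in both, and none passed. The genes of a list were read from the same arrays, so they are not independent of each other. PERP, a desmosome membrane protein, differed by 0.60 in paced pigs (SE 0.14, adjusted p = 0.439) and LDB3, a Z-disc protein, by 0.51 (SE 0.17, adjusted p = 0.589). For pacing in the free wall, which shares the free wall paced arrays, PERP gave -0.36 (SE 0.14, adjusted p = 0.998). XIRP2, an actin-binding protein of the disc, had a pacing difference of 0.74 in the free wall and 0.62 in the septum (SE 0.27 each), and of 0.68 with the regions averaged (SE 0.18, adjusted p = 0.791). Of the 8 tested tight junction partners, ESAM, an adhesion molecule of endothelium, differed by 0.43 between septum and free wall of paced pigs (SE 0.19, adjusted p = 0.738). Markers of other cell types came from 11 lists of 75 genes, of which 52 were on the array and 48 were tested, and 0 were called. The 3 conduction system markers on the array averaged 5.07 to 5.81, beside GJA5 and GJC1, and their difference between groups did not pass in any comparison.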

How the data were processed

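Total RNA from 12 pieces of pig left ventricle was extracted with Trizol and labelled with biotin, per the labels' protocols. The deposited values are log2 signals, for which the submitters' processing notes name RMA and Affymetrix Expression Console 1.4. RMA corrects background, normalises quantiles and summarises probes, which compresses differences of dim genes. The genome build is not given in the sources used here. Groups were taken from the labels. The members and lists were chosen with earlier results of these data known. Probe sets in the lowest 25% by mean (under 3.00) were left out. limma 3.58.1 (R 4.3.3) fitted 1 mean per group over all 12 arrays (8 residual and 3.68 prior degrees of freedom). For pacing with the regions averaged, each septum array was first averaged with the free wall array of its treatment and number (4 residual and 3.82 prior degrees of freedom). The number of arrays limits the precision. The code was tested on simulated data.

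GJA1 was named throughout, a fixed set of 18 members (12 on the array, 11 tested) whatever its values, and up to 4 further members with the smallest p under 0.05 in a comparison. Of each partner list the 2 smallest p in a comparison could be named. Values of cell type markers were read beside CDH11, CLDN5 and the epithelial and conduction genes. Deviations from the group means correlated between regions of control pigs at 0.32, 0.25 and 0.24 for the numbers 1 to 3. Between regions of paced pigs the values were 0.09, -0.17 and -0.18. Correlations between different numbers were not computed, so these values do not show whether arrays of the same number came from the same pig. The regions were averaged over arrays known to share only a treatment and a number. The SE and p of pacing with the regions averaged rest on that choice. The annotation gave 1 symbol for 13323 probe sets and several for 357. It can be old, and 52 of 53 members, all but CTNNA3, had an entry in RefSeq's Sscrofa11.1 gene table. Alternatives were a filter of 50% or none, the mean of a gene's probe sets, arrays centred on their medians, array weights, a trended prior variance, only the 6 arrays compared, the number as a block, and each array left out. Leaving out both control arrays with the number 1 was added after seeing the data. Figures were drawn with matplotlib 3.10.9.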

Additional observations from a re-analysis of the deposited data

How the results depend on the processing

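Over 137 alternatives of the counts of junction genes called, 0 had a gene called, and the smallest adjusted p of a junction gene was 0.225. The GJA1 sign was not stable in 4 of the 7 comparisons: for pacing in the free wall it was -0.0017 with arrays centred on their medians. With 1 array left out at a time it ran from -0.11 to 0.19 for pacing in the free wall, from -0.082 to 0.21 for the regions in control pigs and from -0.12 to 0.023 with the treatments averaged. For pacing with the regions averaged it ran from -0.16 to 0.043 with 1 number left out. The GJA1 differences for pacing in the septum, for the regions in paced pigs and between the pacing effects kept their sign. The reversals lie within the spread between arrays, and their cause was not tested. The replicate number as a block changed no call. For the region comparisons and the difference of pacing effects it paired the regions by treatment and number, in control and in paced pigs. For the pacing comparisons the block was the number alone, shared by control and paced arrays. In the block fit GJA1 differed by 0.04 between the regions of control pigs (adjusted p = 0.991). Limits are the 3 arrays a group, the dim signal of most claudins and the missing tie between arrays and animals.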
